A study of Mus musculus with 5 samples.

Results

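The genes of 4 CXC chemokines that draw lymphocytes into tissue (Cxcl9, Cxcl10, Cxcl16 and Cxcl13) and of 3 of their receptors (Cxcr3, Cxcr6 and Cxcr5) were followed through single cells of the mouse kidney. They were chosen by symbol, and all 7 were found among the 32285 genes counted. The study used a unilateral ischemia-reperfusion (UIR) model of acute kidney injury. Single-cell RNA libraries were made from kidneys of sham mice and of UIR mice killed on day 1, day 3, day 14 or day 28. Male C57BL/6J mice aged 6 to 8 weeks had the left renal pedicle clamped for 35 min, and each kidney sample came from 3 mice. The labels do not say whether those 3 mice were sequenced apart, and the methods merged more matrices than the 5 libraries counted here. The counts were deposited as 1 merged table of 5 libraries, numbered 1 to 5 here by the suffix of their barcodes. The suffixes are not tied to a condition in the sources used here, so no value below is a comparison of sham with UIR or of one day with another, and no test over samples could be made.

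CXCL9 and CXCL10 are chemokines induced by interferons, and both bind CXCR3, a receptor of activated T cells and NK cells. CXCL16 is made as a membrane protein that can be shed by ADAM10 and ADAM17, and its receptor CXCR6 marks T cells that stay in tissue. CXCL13 binds CXCR5 and places B cells and follicular helper T cells in lymphoid follicles, so that it is often read as a sign of lymphoid structures in inflamed organs.

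Cxcl9 and Cxcl10 are neighbours on the minus strand of chromosome 5. In GRCm38, Cxcl9 spans chr5:92321347-92328079 and Cxcl10 spans chr5:92346638-92348889, with 18558 bases between them. Their levels differed between cell classes in these libraries (below), and the 250 bases before each RefSeq start (GRCm38.p6, minus strand, written 5′ to 3′) are therefore shown, with the matches to interferon and NF-kappa-B motifs in capitals. The first lies at chr5:92328080-92328329 and the second at chr5:92348890-92349139.
Cxcl9: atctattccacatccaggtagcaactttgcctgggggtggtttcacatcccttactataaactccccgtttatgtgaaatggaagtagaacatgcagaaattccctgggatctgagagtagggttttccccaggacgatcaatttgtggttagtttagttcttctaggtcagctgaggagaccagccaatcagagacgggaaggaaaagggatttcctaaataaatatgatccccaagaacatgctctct
Cxcl10: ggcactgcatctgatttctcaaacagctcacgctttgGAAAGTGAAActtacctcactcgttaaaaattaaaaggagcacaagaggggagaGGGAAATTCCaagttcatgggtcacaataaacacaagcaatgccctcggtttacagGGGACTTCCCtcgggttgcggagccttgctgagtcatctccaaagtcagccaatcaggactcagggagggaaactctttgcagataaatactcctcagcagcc

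The Cxcl10 window held 1 match to the interferon-stimulated response element (TTTCNNTTTC, read here on the opposite strand as GAAAGTGAAA at -213 to -204 from the start). It also held 2 matches to the kappa-B consensus, GGGAAATTCC at -159 to -150 and GGGACTTCCC at -103 to -94. Cxcl9 had no match to these motifs, to the gamma-activated site (TTCNNNGAA) or to the T-box element (GGTGTGA), on either strand. Among 27025 promoter windows of the same length, 3.04% held the interferon-stimulated element, 7.18% the gamma-activated site, 3.75% kappa-B and 3.31% the T-box element. Windows of Cxcl13, Cxcr3 and Cxcr6 held none of the 4 motifs either. For these genes and for Cxcl9 this says only that these letters were not in the window. Response elements spelled otherwise were not searched, so it does not show that an interferon element is lacking.

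Cells were called again from the raw barcodes. Of 70553 called barcodes, 57828 had at least 200 genes and at most 25% mitochondrial counts, and 53377 of these (92.3%) passed the marker gates of 1 class. The names of the classes stand for the gate a cell passed. Proximal tubule cells made up 45026 of the kept cells, beside 1193 macrophages, 1373 T cells, 190 NK cells, 338 B cells and 353 conventional or mature dendritic cells. The 5 libraries kept between 8292 and 19132 cells and held between 51115227 and 95006767 UMIs in them. T cells were unevenly spread, with 559, 471, 222, 87 and 34 cells in libraries 1 to 5. GEO's label of the cell type, goblet cell, was not borne out: Muc2 had 21 UMIs and Zg16 had 0 in all kept cells. Most gates held their own markers at the highest level, which is no outside check of the classes, since the same markers set the gates. Even so, the cDC1 and cDC2 gates each did so for only 5 of 7 markers and the thick ascending limb gate for 5 of 6. The classical monocyte gate did so for 6 of 8 and the remaining epithelial gate for 2 of 8.

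Each lineage was first compared with all other gated cells. Levels are the summed UMIs of a gene scaled to the same total of UMIs in every class, in the usual unit CPM, intervals are 95% intervals of counting error only, and cells are not replicates. Cxcl9, Cxcl10 and Cxcl16 were at least 2-fold higher in mononuclear phagocytes (monocytes, macrophages and dendritic cells), against a background of 17.7% of the 15983 genes with at least 50 UMIs. Cxcl13 was higher too, but these phagocytes held 69 of its 77 UMIs in gated cells. It passed the limit of 50 UMIs only through them and is not read against the background. All 3 receptors were at least 2-fold higher in lymphoid classes, against a background of 16.3%. Lymphoid classes held 726 of the 748 gated UMIs of Cxcr6 and 81 of the 117 of Cxcr5. Both genes passed the limit only through these classes and are not read against the background either. Cxcl9 stood at 36.9 CPM in mononuclear phagocytes and 0.188 CPM in the other cells, a log2 ratio of 7.62 (7.22 to 8.04). The log2 ratio was 2.20 (2.15 to 2.25) for Cxcl16 and 1.47 (1.41 to 1.54) for Cxcl10. Cxcl13 had a log2 ratio of 7.60 (6.54 to 8.87), which rests on 3 cells described below. Among the receptors the log2 ratio was 8.21 (7.81 to 8.62) for Cxcr3, 10.82 (10.21 to 11.51) for Cxcr6 and 6.95 (6.37 to 7.56) for Cxcr5.

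**Figure D1:**
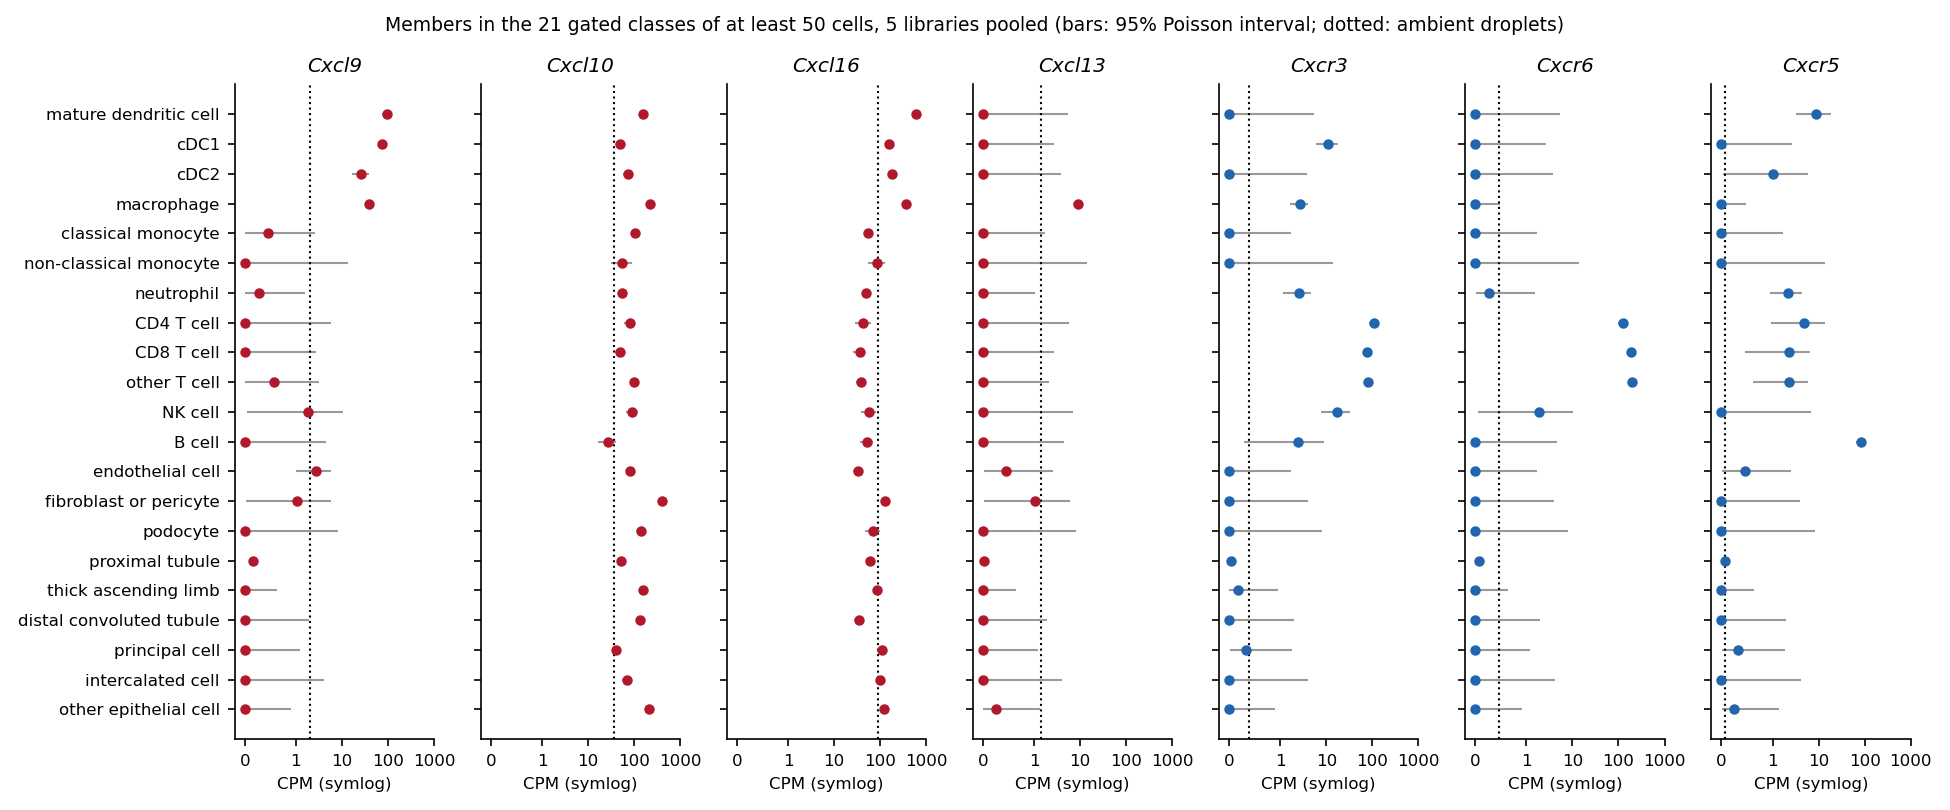
Level of each gene in the 21 gated classes of at least 50 cells, with the 5 libraries pooled. Each point is the CPM on a symmetric log axis that is linear below 1, bars are 95% Poisson intervals, and the dotted line is the level in ambient droplets. Cxcl9 is high in 4 phagocyte classes, Cxcl10 and Cxcl16 are found in every class, Cxcr3 and Cxcr6 are high in the T cell classes, and Cxcr5 is high in B cells.

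Cxcl9 was found mainly in dendritic cells and macrophages, and mononuclear phagocytes held 84.9% of its 576 UMIs. Mature dendritic cells held 94.6 CPM (73.1 to 120, 66 UMIs), cDC1 73.6 CPM (60.0 to 89.3), macrophages 38.9 CPM (34.6 to 43.6) and cDC2 26.05 CPM (16.9 to 38.5). In this pooled order mature dendritic cells and cDC1 did not differ beyond counting error (log2 ratio 0.36, -0.11 to 0.82), nor did macrophages and cDC2 (0.58, -0.01 to 1.23). Both rest on which libraries are pooled: mature dendritic cells lay above cDC1 without library 1 (1.83, 1.17 to 2.53) and below them without library 2 (-1.19, -2.25 to -0.27), and the cDC2 level without library 2 was 4.94 CPM. Pooled cDC1 lay above macrophages (0.92, 0.58 to 1.25). That gap was resolved in library 1 alone (1.79, 1.36 to 2.20), with 0.52 (-0.13 to 1.13) in library 2 and 0.41 (-5.47 to 4.67) in library 3, and without library 1 cDC1 held 27.5 CPM and macrophages 26.96 CPM. Classical monocytes had 1 Cxcl9 UMI in 440 cells, and proximal tubule cells 0.171 CPM beside 1.99 CPM in ambient droplets. Few cells carried the gene: 40 of 1193 macrophages (3.35%) had a Cxcl9 UMI, and 10 of them held 78.0% of its UMIs. The share was 0.0644% in proximal tubule cells, at a median depth of 5235 UMIs against 4368 UMIs in macrophages. With 1 cell left out, the one with the most UMIs, Cxcl9 fell to 28.8 CPM in mature dendritic cells, to 10.5 CPM in cDC2, to 55.8 CPM in cDC1 and to 28.6 CPM in macrophages, and their order changed. The cDC1 gate was not specific by its markers (above). With 1 more marker required, cDC1 held 188 CPM and mature dendritic cells 54.3 CPM, and summed pan-leukocyte markers in cDC1 ran from 477 to 3252 CPM over 3 libraries.

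By library, Cxcl9 in macrophages was 70.2, 48.6, 1.36, 5.79 and 71.0 CPM in libraries 1 to 5. Libraries 1, 2 and 5 were high and libraries 3 and 4 low, but the value of library 5 came from 1 of 55 macrophages. In cDC1 the level of Cxcl9 was 242 CPM in library 1, 69.8 CPM in library 2 and 1.81 CPM in library 3. Pan-leukocyte markers in the cDC1 gate also varied over these libraries (above). Their part in these values, and in the cDC1 levels of Cxcl16 and Cxcr3 below, was not tested. Without library 1 the pooled cDC1 level was 27.5 CPM, and without library 3 it was 121 CPM. Mature dendritic cells had 79.9 CPM of Cxcl9 in library 1 and 151 CPM in library 2, and without library 2 their pooled level was 32.9 CPM. The log2 ratio of mononuclear phagocytes to all other gated cells ran from 2.21 (0.18 to 3.81) in library 3 to 9.73 (7.68 to 12.28) in library 5. In libraries 3 and 4, however, phagocytes held 0.946 and 5.10 CPM of Cxcl9 beside 0.883 (0.441 to 1.58) and 4.68 CPM (3.14 to 6.73) in ambient droplets of the same library. The other gated cells held 0.205 and 0.102 CPM there. The share of ambient RNA in the counts of phagocytes was not tested. These 2 levels are therefore read neither as expression nor as ambient RNA. In libraries 1, 2 and 5 phagocytes held 78.5, 56.9 and 49.5 CPM beside 0.927, 4.04 and 1.27 CPM in ambient droplets.

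**Figure D2:**
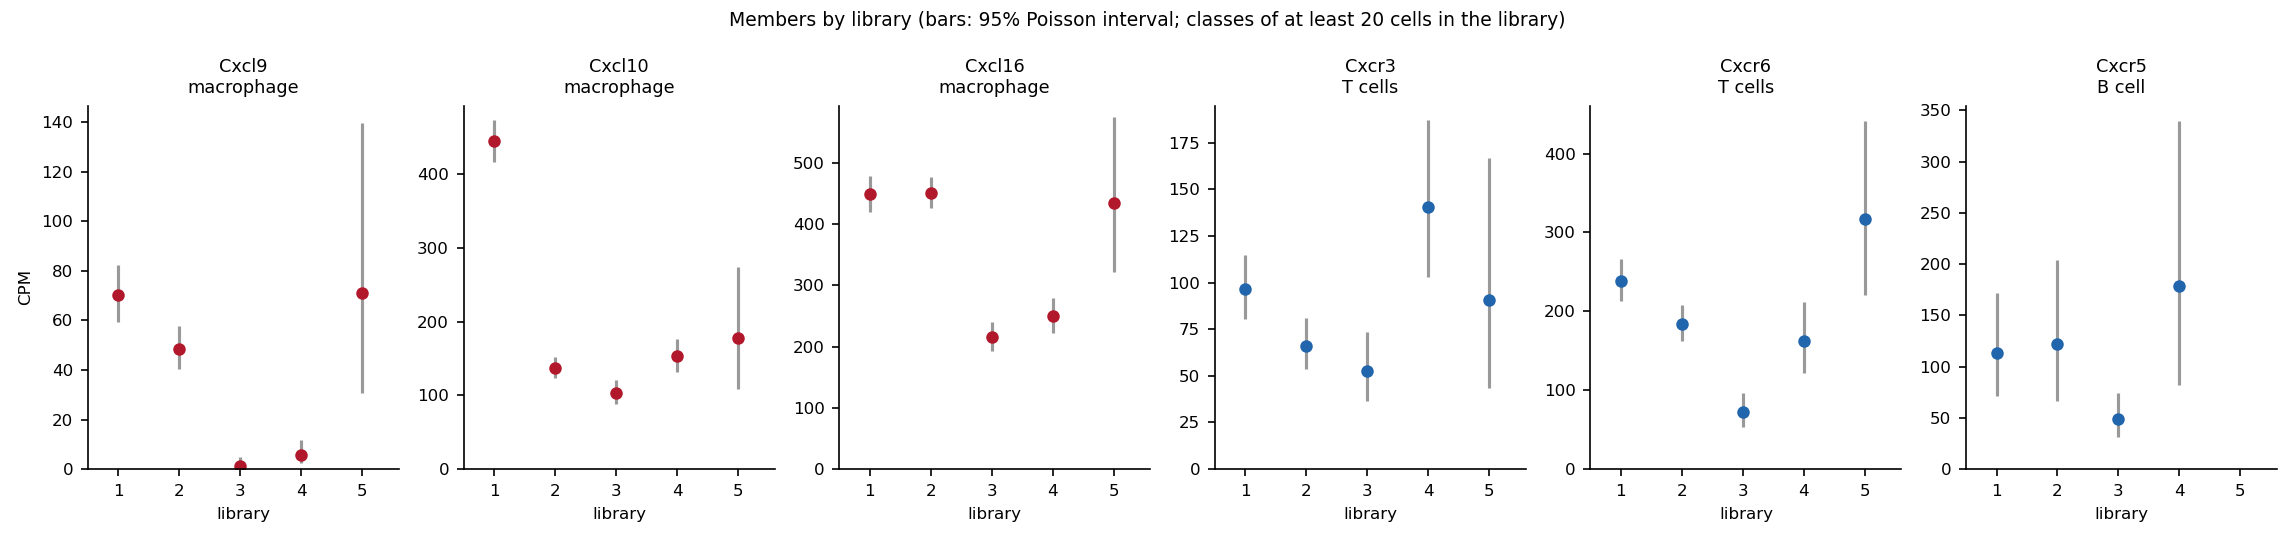
Levels by library in classes with enough cells to be read by library: macrophages for 3 ligands, T cells for Cxcr3 and Cxcr6, and B cells for Cxcr5. Points are CPM, bars are 95% Poisson intervals, and a class with fewer than 20 cells in a library is left out. Library 3 is the lowest in all 6 panels.

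Cxcl10 had a much wider range of sources. With libraries pooled, fibroblasts or pericytes held 395 CPM (356 to 437), macrophages 218 CPM (208 to 229), the remaining epithelial cells 215 CPM (201 to 230), mature dendritic cells 156 CPM, thick ascending limb 154 CPM, podocytes 144 CPM, distal convoluted tubule 135 CPM and classical monocytes 105 CPM. The order of these classes changed with the libraries pooled and is not read as a ranking. The remaining epithelial cells were 593 CPM in library 1 and 104 to 191 CPM in libraries 2 to 4, and stood at 143 CPM without library 1 and at 330 CPM without library 3. The distal convoluted tubule, with 180 of its 306 cells from library 5, was 68.5, 193, 222 and 19.7 CPM in libraries 1, 2, 3 and 5, and 241 CPM without library 5. Podocytes ran from 16.7 to 273 CPM over 3 libraries, and were at 72.6 CPM without library 2. Classical monocytes, with 341 of 440 cells from library 3, were at 240 CPM without it. They lay below macrophages in library 3 (log2 ratio of macrophages to monocytes 0.69, 0.33 to 1.07) and above them in library 4 (-1.08, -1.46 to -0.69), and were not resolved from them in library 2 (-0.48, -0.96 to 0.04). The level of fibroblasts or pericytes leaned on few cells: 25 of 123 cells carried a UMI, 1 of them held 139 of the 372 UMIs, and the level was 249 CPM without it. The class had 676, 132 and 414 CPM of Cxcl10 in libraries 1, 2 and 3, and without library 1 it stood at 166 CPM and did not differ from macrophages beyond counting error (0.33, -0.01 to 0.65). The 25 carrying cells had a median of 11317 UMIs against 3721 UMIs in the other 98, and 80.0% of them against 22.4% had a UMI of a macrophage marker. The part of this difference in the level was not tested.

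In macrophages Cxcl10 was 444, 137, 103, 153 and 177 CPM in libraries 1 to 5. Library 1 was alone at the top, and without it the pooled level was 132 CPM. T cells held 78.0 CPM of Cxcl10 (69.5 to 87.3), in 77 of 1373 cells, beside an ambient level of 36.9 CPM. By library the T cell level of Cxcl10 was 38.2, 103, 95.9, 18.3 and 308 CPM, below the ambient level of its library in library 4, and in library 5 from 2 cells. In CD8 T cells 1 cell held 43 of the 66 UMIs of the class. The surplus of Cxcl10 in mononuclear phagocytes over all other gated cells was not the same in every library. Its log2 ratio was 2.47 in library 1, 0.66 in library 2, -0.01 (-0.18 to 0.15) in library 3, 2.08 in library 4 and 2.65 in library 5.

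Proximal tubule cells held 13989 of the 20899 Cxcl10 UMIs in kept cells (66.9%), since they were by far the most numerous, at 51.9 CPM (51.0 to 52.7). Only 6.07% of them had a UMI of the gene, and 2732 cells shared those counts. By library the tubule level was 46.6, 75.9, 71.3, 34.7 and 17.7 CPM, beside 27.5, 46.9, 41.6, 45.9 and 19.9 CPM of Cxcl10 in the ambient droplets of libraries 1 to 5. Proximal tubule cells were above the ambient level in libraries 1 to 3, below it in library 4 and level with it in library 5 (16.5 to 23.7 CPM in ambient droplets).

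**Figure D3:**
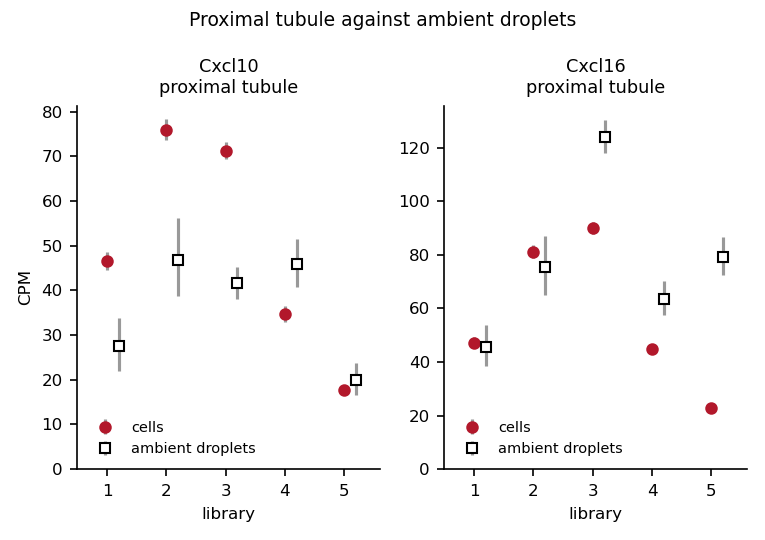
Cxcl10 and Cxcl16 in proximal tubule cells (filled circles) and in ambient droplets (open squares) of each library, in CPM with 95% Poisson intervals. Tubule Cxcl10 lies above the ambient level in libraries 1 to 3, and tubule Cxcl16 lies below it in libraries 3 to 5.

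Within the epithelium, Cxcl10 was sorted by injury markers. Havcr1 encodes KIM-1, a marker of acute tubular injury, and Vcam1 marks tubule cells of a failed repair state. Epithelial cells with a Vcam1 UMI and no Havcr1 UMI held 402 CPM of Cxcl10 (387 to 418), cells with a Havcr1 UMI 115 CPM (111 to 119) and cells with neither 40.5 CPM (39.7 to 41.3). Each group pools all tubule classes with the remaining epithelial cells, whose Cxcl10 levels differ (above). Summed proximal tubule markers were 10444, 9526 and 14346.5 CPM in these groups, and the part of the class mix was not tested. The Vcam1+ Havcr1- cells lay above the cells with neither by a log2 ratio of 3.31 (3.25 to 3.38) and above the Havcr1+ cells by 1.81 (1.73 to 1.88). Library 3 gave 2708 of the 3726 Havcr1+ cells, whose level without it was 198 CPM, and the latter ratio was 1.03, 0.71, 2.12 and 0.73 in libraries 1 to 4. With libraries pooled the Vcam1+ Havcr1- cells were also above macrophages (0.88, 0.79 to 0.97). In libraries 1 to 4 the Vcam1+ Havcr1- cells held 536, 372, 321 and 196 CPM of Cxcl10, and the Havcr1+ cells 262, 227, 73.7 and 118 CPM, so the order held in 4 of 4 libraries. Cells with neither marker held 28.4, 44.6, 75.3 and 27.8 CPM, and in library 3 they were level with the Havcr1+ cells. A UMI of Cxcl10 was present in 31.5% of Vcam1+ Havcr1- cells, 14.8% of Havcr1+ cells and 5.48% of the others. At 1000 UMIs per cell these shares were 16.6%, 5.62% and 2.07%. The medians of depth were 7045.5 and 7162 UMIs for the marked cells and 5083 UMIs for the unmarked.

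Cxcl16 was led by mature dendritic cells at 606 CPM (550 to 667), with 78 of 86 cells (90.7%) carrying a UMI. Macrophages followed at 373 CPM (359 to 387), then cDC2 at 184 CPM and cDC1 at 159 CPM. Mature dendritic cells lay above macrophages (log2 ratio 0.70, 0.55 to 0.85) and macrophages above cDC2 (1.01, 0.79 to 1.24), while cDC2 and cDC1 did not differ beyond counting error (0.22, -0.08 to 0.51). Classical monocytes held 54.1 CPM (85.3 CPM without library 3) and neutrophils 48.5 CPM, beside an ambient level of 90.5 CPM. Unlike Cxcl9, the gene was spread over many cells: 840 of 1193 macrophages (70.4%) had a Cxcl16 UMI, and the 10 highest held 6.41% of its UMIs.

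Macrophage Cxcl16 was 449, 451, 216, 250 and 435 CPM in libraries 1 to 5, with libraries 3 and 4 the lowest, as they were for Cxcl9. Mature dendritic cells had 719 CPM in library 1 and 661 CPM in library 2. Proximal tubule cells held 70.5% of all Cxcl16 UMIs at 60.9 CPM (60.0 to 61.9), under the ambient level. By library their Cxcl16 was 47.1, 81.2, 90.0, 44.8 and 22.9 CPM, beside 45.7, 75.6, 124, 63.6 and 79.3 CPM in ambient droplets. It was close to the ambient level in libraries 1 and 2 and below it in libraries 3 to 5. The share of ambient RNA in the counts of these cells was not tested. The tubule level of Cxcl16 is therefore read neither as expression nor as ambient RNA. Vcam1+ Havcr1- epithelium stood above the ambient level at 147 CPM (138 to 157), Havcr1+ epithelium was at 99.2 CPM and cells with neither at 55.9 CPM. The Vcam1+ Havcr1- level of Cxcl16 was 132, 151, 159 and 137 CPM in libraries 1 to 4, above the ambient level in each. It lay above the Havcr1+ level in libraries 3 (log2 ratio 0.82, 0.55 to 1.07) and 4 (0.65, 0.30 to 0.996), but did not differ from it beyond counting error in libraries 1 (0.17, -0.10 to 0.44) and 2 (0.07, -0.11 to 0.24).

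Macrophages were divided by Arg1 and Gpnmb, genes of wound-type and lipid-handling macrophages. Cells with neither UMI held 59.4 CPM of Cxcl9 (52.8 to 66.7), Arg1+ cells 3.21 CPM (1.04 to 7.50, and 0.867 without library 4) and Gpnmb+ Arg1- cells none in 92 cells. A count of 0 allows 2.62 CPM. By the ratio interval, which covers counting error only, the pooled level without both markers was at least 18.3-fold higher than in Gpnmb+ Arg1- cells. The Cxcl9 UMIs of cells with neither marker lay in 38 of 941 cells, and the 10 highest held 79.3% of them. Among libraries with at least 20 cells in both states the gap in Cxcl9 was resolved in library 2 alone, and 4 of the 160 Arg1+ cells came from library 1. In library 2 the cells with neither marker held 89.0 CPM, Arg1+ cells 1.71 CPM and Gpnmb+ Arg1- cells none, at least 15.5-fold less by the ratio interval. In library 4 they held 5.53 CPM of Cxcl9 against 9.93 CPM in Arg1+ cells (log2 ratio -0.84, -3.62 to 1.72), and the 0 in Gpnmb+ Arg1- cells there set no bound above 1. In library 3 the 2.26 CPM of Cxcl9 against 0 in Arg1+ cells was not resolved. Cxcl10 was also highest in cells with neither marker, with 318 CPM (210 CPM without library 1) against 47.5 CPM in Arg1+ and 27.9 CPM in Gpnmb+ Arg1- cells. Cxcl16 was less divided, with 444 CPM in cells with neither marker, 214 CPM in Arg1+ cells and 284 CPM in Gpnmb+ Arg1- cells. In libraries 2, 3 and 4, where both could be read, Cxcl10 was 236, 133 and 269 CPM in cells with neither marker and 13.7, 63.1 and 74.5 CPM in Arg1+ cells. The median depth was 3780 UMIs for cells with neither marker, 7097.5 UMIs for Arg1+ cells and 10175.5 UMIs for Gpnmb+ Arg1- cells, and its part in the split was not tested.

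**Figure D4:**
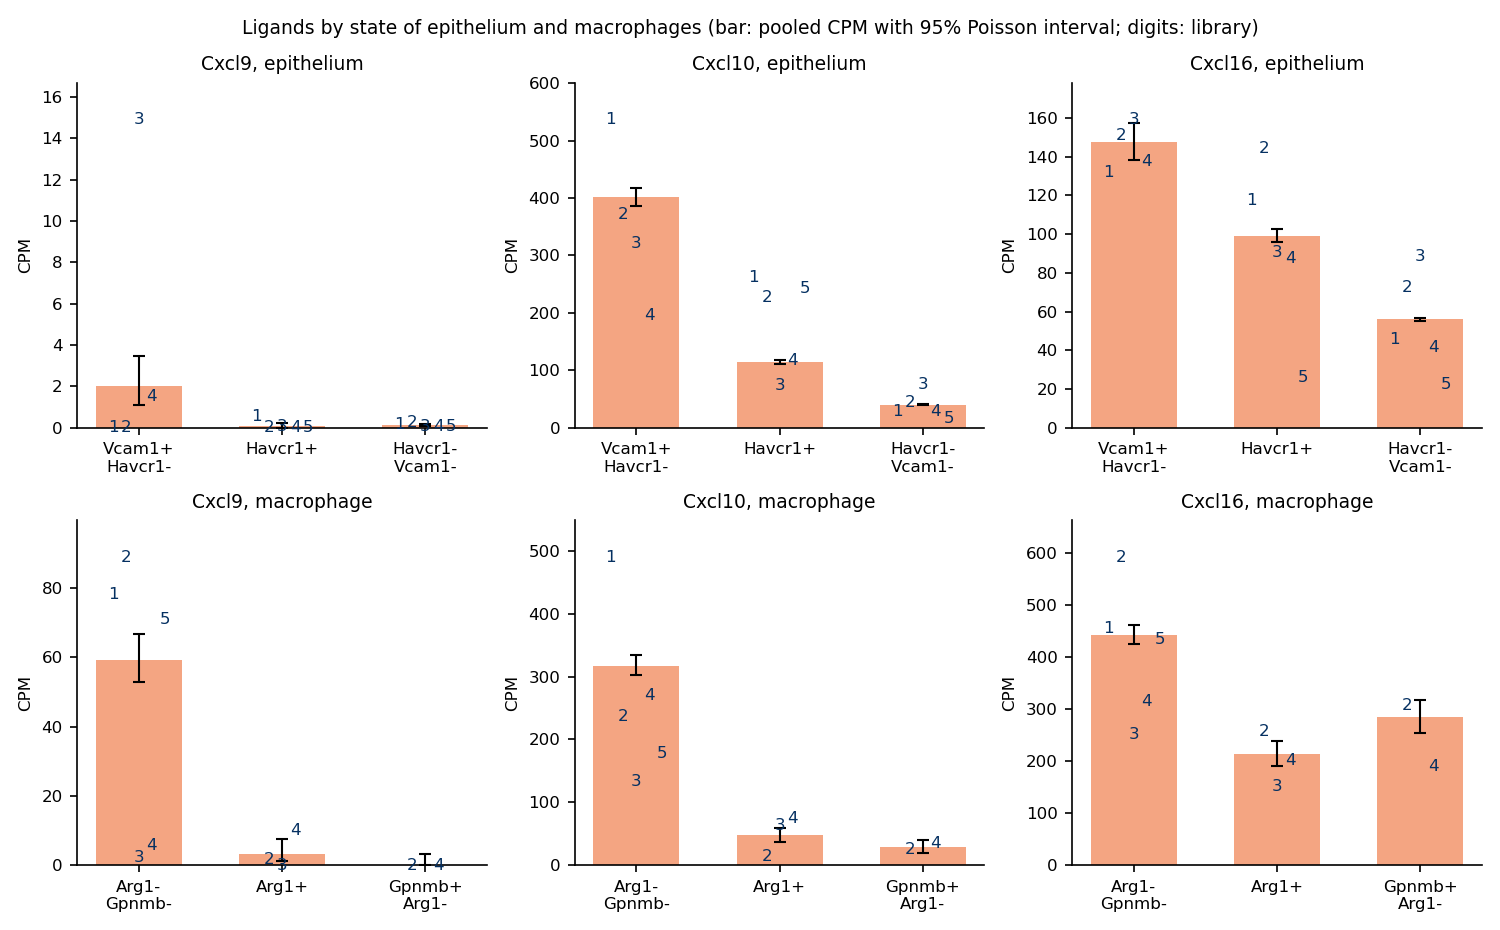
Cxcl9, Cxcl10 and Cxcl16 in epithelium divided by Vcam1 and Havcr1 (upper row) and in macrophages divided by Arg1 and Gpnmb (lower row). Bars are pooled CPM with 95% Poisson intervals, and digits mark the level in each library with at least 20 such cells. Cxcl10 is highest in Vcam1+ Havcr1- epithelium (402 CPM) and in macrophages without Arg1 or Gpnmb (318 CPM). In the first panel, the digit 3 at the top stands for 12 UMIs in 1 of 100 cells.

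Cxcl13 was rare. It had 87 UMIs in 57828 kept cells, and 69 of them (79.3%) were in 3 macrophages of library 1, 1 of which held 50. The macrophage level was 9.10 CPM (7.08 to 11.5) pooled, 32.9 CPM in library 1 and 0 in the other 4 libraries. Ambient droplets held 42 UMIs of Cxcl13, none of them in library 1 and 27 in library 4, where the level was 4.36 CPM (2.87 to 6.35) beside 0.0197 CPM in gated cells. The macrophage level was 2.51 CPM without the highest cell. The 3 cells carried no T cell marker, none was marked by Scrublet, and 2 of the 3 also had a Cxcl9 UMI at 1000 UMIs per cell. Fibroblasts or pericytes had 1 UMI of Cxcl13 in 123 cells. B cells had 0 in 338 cells, which allows a share of cells with a UMI of up to 0.888% and, at their median depth of 1434.5 UMIs, sets no limit on cells expressing the gene.

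Cxcr3 was counted mostly in T cells, which held 76.5% of its 412 UMIs. CD4 T cells held 107 CPM (83.4 to 136), other T cells (with UMIs of both Cd4 and Cd8, or of neither and none of Trdc) 79.1 CPM and CD8 T cells 77.2 CPM (63.1 to 93.6). The pooled log2 ratio of CD8 to CD4 T cells was -0.48 (-0.93 to -0.01), but 1 CD4 T cell held 10 of the 68 Cxcr3 UMIs of its class, and without it the CD4 level was 94.8 CPM. By library the ratio was 0.19 (-0.65 to 1.09) in library 1, -0.87 (-1.69 to -0.05) in library 2 and -0.89 (-2.24 to 0.45) in library 3, so the order of CD4 and CD8 T cells was resolved in library 2 alone of these. The CD4 T cell with 10 UMIs was in library 2, and the ratio there without it was not computed. The order is therefore not read as a result. CD8 T cells did not differ from other T cells beyond counting error. NK cells were at 16.8 CPM, below CD8 T cells by a pooled log2 ratio of 2.20 (1.22 to 3.37). By library NK cells held 41.7, 18.9, 0 and 42.6 CPM of Cxcr3 in libraries 1 to 4. Library 3 gave 89 of the 190 NK cells, and without it the level was 32.5 CPM. CD8 T cells held 48.7 to 132 CPM over libraries 1 to 4 and so lay above NK cells in each. The gap was not resolved in libraries 1 (1.36, -0.58 to 4.45) and 2 (1.36, -0.63 to 4.48). A Cxcr3 UMI was seen in 241 of 1373 T cells (17.6%), against 8 of 45026 proximal tubule cells (0.0178%), at median depths of 1833 and 5235 UMIs. The level in T cells was 96.5, 66.2, 52.6, 140.5 and 90.7 CPM in libraries 1 to 5. Library 4 was the highest and library 3 the lowest.

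Cxcr3 was also counted in a few myeloid cells. It stood at 10.8 CPM (6.06 to 17.8) in cDC1, in 11 of 108 cells, and at 2.64 CPM in macrophages (1.46 CPM without library 1), in 17 of 1193 cells, while cDC2 had none. Plasmacytoid dendritic cells, a class of 39 cells, held 35.1 CPM (14.1 to 72.4). None of the 11 Cxcr3+ cDC1 and 1 of the 17 Cxcr3+ macrophages had a T cell marker, a share of 5.88% in the latter against 4.68% of macrophages without Cxcr3. Scrublet marked 27.3% of the Cxcr3+ cDC1 and 18.6% of the others.

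Cxcr6 had the largest share in T cells of the 3 receptors, with 721 of its 786 UMIs (91.7%) in T cells. Gamma-delta T cells held the highest level at 439 CPM (329 to 574), but in only 40 cells. Other T cells had 193 CPM (173 to 215), CD8 T cells 184 CPM (162 to 209) and CD4 T cells 123 CPM (97.4 to 154). CD8 T cells lay above CD4 T cells (log2 ratio 0.58, 0.21 to 0.97), in libraries 1 and 2 but not beyond counting error in library 3 (0.11, -1.30 to 1.66), nor pooled without library 1 (0.43, -0.03 to 0.90) or library 2 (0.49, -0.02 to 1.04). CD8 T cells did not differ from other T cells beyond counting error (0.07, -0.17 to 0.31). NK cells had 1 Cxcr6 UMI in 190 cells, so that T cells were above them by a log2 ratio of 6.64 (4.16 to 11.95). Macrophages had 0 Cxcr6 UMIs in 1193 cells, which allows 0.396 CPM, and B cells 0 in 338 cells. The 11 Foxp3+ CD4 T cells had none either, against 131 CPM in Foxp3- CD4 T cells, but a count of 0 there still allows 78.2 CPM.

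The T cell level of Cxcr6 was 239, 184, 72.7, 162 and 317.5 CPM in libraries 1 to 5, with library 3 the lowest, as for Cxcr3. CD8 T cells alone had 238, 195, 74.0 and 139 CPM in libraries 1 to 4. A Cxcr6 UMI was present in 408 of 1373 T cells (29.7%) and in 17 of 45026 proximal tubule cells (0.0378%). Of those 17 tubule cells, 11 also had a T cell marker (64.7%, against 8.12% of the other tubule cells).

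Cxcr5 was led by B cells, which held 46.9% of its 147 UMIs. B cells held 84.3 CPM (65.6 to 107), with a UMI in 61 of 338 cells (18.0%) at a median depth of 1434.5 UMIs, against 18 of 45026 proximal tubule cells (0.0400%). T cells stood at 2.58 CPM (1.24 to 4.75), below B cells by a log2 ratio of 5.03 (4.06 to 6.15). CD4 T cells, which would include follicular helper cells, held 4.74 CPM of Cxcr5 from 3 UMIs, and 3.14 CPM from 1 UMI without library 2. The pooled level did not differ from the 2.23 CPM of CD8 T cells beyond counting error (log2 ratio of CD8 to CD4 -1.09, -3.99 to 1.81). Mature dendritic cells had 8.60 CPM (3.16 to 18.7), in 6 of 86 cells. In B cells Cxcr5 was 113, 122, 49.2 and 179 CPM in libraries 1 to 4, with library 3 again the lowest and 126 CPM without it.

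Whether the members met in the same cells was asked after every cell was thinned to 1000 UMIs. A Cxcr3 UMI was found in 26 of 232 Cxcr6+ T and NK cells (11.2%, 7.45 to 15.99) and in 8.18% (6.70 to 9.86) of the Cxcr6- cells. These intervals overlap. Ifng, the cytokine that induces Cxcl9, was detected in 15.9% (9.97 to 23.4) of Cxcr3+ and 8.80% (7.34 to 10.5) of Cxcr3- T and NK cells, where the intervals also just overlap. Among mononuclear phagocytes, Cxcl10 was detected in 13 of 32 Cxcl9+ cells (40.6%, 23.7 to 59.4) and in 8.90% (7.68 to 10.2) of the others. Cxcl16 was detected in 46.9% (29.1 to 65.3) of Cxcl9+ cells and in 24.0% (22.1 to 25.9) of the others. Within macrophages alone the shares were 45.5% (24.4 to 67.8) and 11.8% (9.93 to 13.8) for Cxcl10, and 45.5% (24.4 to 67.8) and 32.3% (29.6 to 35.2) for Cxcl16, where the intervals overlap. Cxcl10 was thus detected more often with Cxcl9 than without it, in few cells, and library 1, which gave 21 of the 40 Cxcl9+ macrophages, also had the highest macrophage Cxcl10.

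T and NK cells with and without a Cxcr6 UMI were compared over a list of lymphocyte state genes, of which 25 of 28 had at least 50 UMIs after thinning. All 232 cells with a Cxcr6 UMI were T cells, while 1048 of the 1223 cells without one were, so the class mix moved with the group and its part was not tested. Itga1, the CD49a integrin of tissue T cells, was at least 2-fold higher (log2 ratio 1.69, 1.07 to 2.30), against a background of 0.922% of 3580 genes. At least 2-fold lower were 3 of the 25 genes, against a background of 7.29%. Among them were Ccr7 and Klf2, genes of cells that recirculate through lymph nodes, with log2 ratios of -3.89 and -2.99. The remaining gene is not named here. Without thinning 3 genes were again at least 2-fold lower, against a background of 4.13%. In thinned cells Pdcd1 (0.96, 0.45 to 1.46), Rora (0.95, 0.59 to 1.31) and Rgs1 (0.77, 0.54 to 0.99) stayed short of 2-fold, and Ifng had a log2 ratio of 0.42 (-0.10 to 0.91). Library 3 had the lowest T cell Cxcr6 (72.7 CPM) and the lowest Ifng in T and NK cells (42.0 CPM). The part of the library mix was not tested. The median log2 ratio of the list was 0.22, against -0.01 over all genes. Cells were sorted by 1 detected UMI, so the groups without it include cells in which the gene was missed.

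T and NK cells with a Cxcr3 UMI had 1 gene of the same list at least 2-fold higher, Itga1 (1.01, 0.14 to 1.79), against a background of 1.54%, and 3 at least 2-fold lower, against a background of 8.66%. The lower genes were Ccr7, with no UMI in the 126 Cxcr3+ cells and 79 in the others, Klf2 (-1.99, -5.06 to -0.10) and Eomes (-1.41, -4.49 to 0.51), a marker of the NK gate whose interval includes no difference. NK cells held less Cxcr3 than T cells (above), so the class mix moved with this group too. Without thinning no gene of the list was at least 2-fold higher, against a background of 1.7%. In thinned cells Ifng was higher by 0.90 (0.31 to 1.45). Library 3 had the lowest Ifng in T and NK cells (42.0 CPM, against 163 CPM in library 1) and the lowest T cell Cxcr3 (52.6 CPM). The part of the library mix was not tested. Pdcd1 had a log2 ratio of -0.80 (-1.95 to 0.16), on the other side of 0 from its value in Cxcr6+ cells, but the difference between the receptors was not tested.

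**Figure D5:**
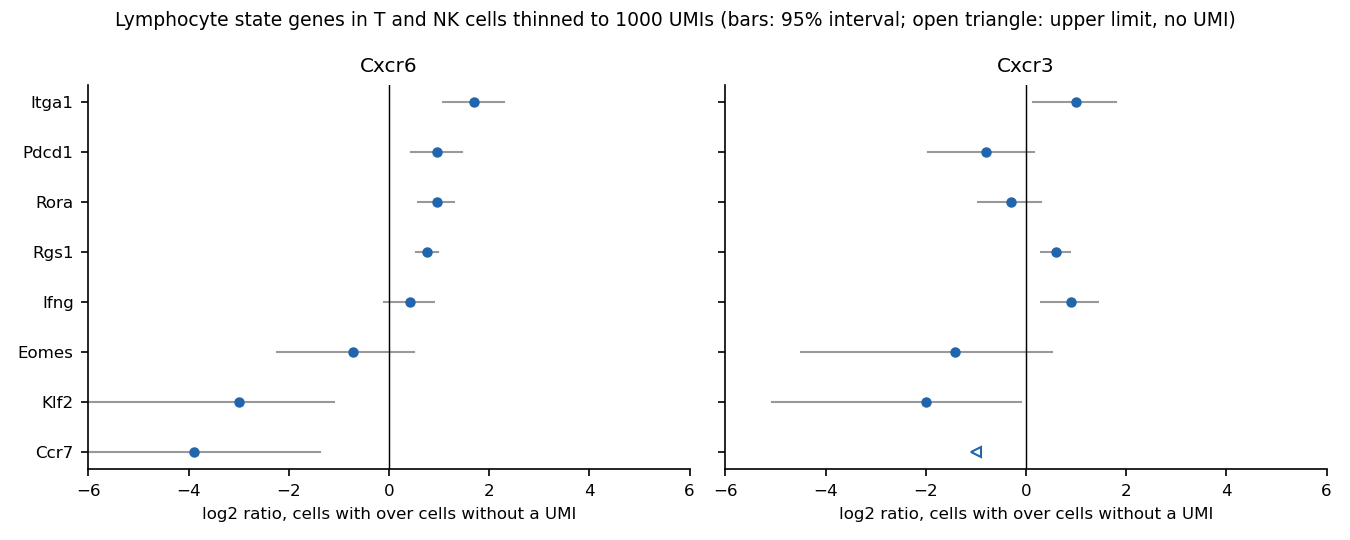
Log2 ratio of the 8 lymphocyte state genes named in the text between T and NK cells with and without a UMI of Cxcr6 (left) or Cxcr3 (right), each cell thinned to 1000 UMIs. Points are ratios of summed CPM, bars are 95% intervals (drawn to -6), and the open triangle is an upper limit for Ccr7, which had no UMI in Cxcr3+ cells. Itga1 is at the top (1.69) and Ccr7 (-3.89) and Klf2 (-2.99) are at the bottom for Cxcr6.

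Macrophages and monocytes with a Cxcl9 UMI were few, 22 after thinning. All 22 were macrophages, while 1095 of the 1599 cells without one were. The class mix thus moved with this group too, and its part was not tested. Of the type I interferon genes, 2 of the 4 with enough UMIs were at least 2-fold higher, Isg15 (2.27, 1.33 to 3.08) and Oasl2 (2.38, 0.45 to 3.81), against a background of 11.9%. Library 1 gave 21 of the 40 Cxcl9+ macrophages, and macrophage Isg15 was 160 CPM there against 66.0, 76.2, 60.4 and 53.2 CPM in libraries 2 to 5, whose part was not tested. Of the interferon-gamma genes 2 of 7 were, among them Irf1 (1.06, -0.83 to 2.45), whose interval includes no difference, and the median log2 ratio of this list was 0.49 against 0.46 over all genes. No gene of either list was at least 2-fold lower, against a background of 7.78%. Without thinning, 6 of 7 and 5 of 12 genes were at least 2-fold higher, against a background of 3.82%.

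Interferon-gamma itself was counted in the lineages that bear the receptors. With libraries pooled, Ifng stood at 115 CPM in CD4 T cells, 69.8 CPM in CD8 T cells and 50.4 CPM in NK cells. Levels in other T cells and gamma-delta T cells are not given here, so these values are not read as a ranking of sources. Library 3 gave 89 of the 190 NK cells and 27 of the 193 CD4 T cells. Mononuclear phagocytes had 0 Ifng UMIs in 2094 cells. In T and NK cells Ifng was 163, 82.3, 42.0, 59.3 and 86.1 CPM in libraries 1 to 5, highest in library 1 and lowest in library 3.

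Of the other chemokine genes listed, 18 of the 20 read had at least 50 UMIs. In mononuclear phagocytes 11 were at least 2-fold higher and 4 at least 2-fold lower than in the other gated cells, and in lymphoid classes 8 and 4. The backgrounds over all genes were 17.7% higher and 20.8% lower in phagocytes, and 16.3% higher and 16.6% lower in lymphoid classes, so the 4 of 18 lower genes lay near their background in both. Listed genes that reached 50 UMIs only through the lineage where they were high were not taken out. The counts of higher genes are therefore not read against the background. The list holds Ccl22, Ccr7, Xcr1 and Ccr9, which are markers of dendritic cell gates, so part of the phagocyte count can follow from the gating. Ccl22, itself a marker of the mature dendritic cell gate, had the largest log2 ratio in phagocytes (10.06, 9.17 to 11.13) and Xcl1 in lymphoid classes (8.94, 8.63 to 9.27). Cxcl12, the stromal ligand of CXCR4, was led by fibroblasts or pericytes (149 CPM). Ccl19, Ccl21a and Ccl27a each had several rows in the table and were not read. Of the enzymes that act on these ligands, the CXCL16 sheddase gene Adam17 was higher in mononuclear phagocytes (log2 ratio 1.86, 1.74 to 1.98), as was Adam10 to a smaller degree (0.82, 0.71 to 0.92). Dpp4, which trims CXCL9 and CXCL10, had a log2 ratio of -0.29 (-0.46 to -0.14), with no common direction over libraries: phagocytes held 37.2 CPM against 27.9 CPM in epithelium in library 1, and 14.4 CPM against 31.9 CPM in library 3. Of the follicle genes, Il21 had no UMI in CD4 T cells, and Cr2, a receptor of B cells and follicular dendritic cells, had 33 UMIs in lymphoid classes.

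Genes with the most similar profile were sought over the 21 classes of at least 50 cells, among 13837 genes, by Pearson's r of log2(CPM + 1), which is a description over classes that share libraries. Cxcr6 was closest to Cd3g (0.996), Ubash3a, Pdcd1, Themis and Cd3d, and Cxcr3 to Gm43065 (0.957), Lat, Trbc1 and Cd28, several of which were used to gate T cells. Cxcr5 was closest to Igkc (0.865), Fcer2a and the gate marker Cd79a. Cxcl9 was closest to Xlr (0.897), Dcstamp, Ccl17, Mmp12 and the cDC2 gate marker Mgl2. Cxcl13 was closest to Ccl8 (0.957), Mmp13, Tmem119, Slco2b1 and the macrophage gate marker Ms4a7, but its profile rests on 69 UMIs in 3 macrophages of library 1. Cxcl16 (H2-M2, 0.817) and Cxcl10 (Igf1, 0.768) had looser neighbours. Between members r was 0.893 for Cxcr3 and Cxcr6, 0.756 for Cxcl9 and Cxcl16 and 0.164 for Cxcl9 and Cxcl10.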

How the data were processed

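Per the labels and the file header, the authors aligned the reads of 10x 3' v3.1 libraries to mm10 (GRCm38) with Cell Ranger 6.0 and deposited raw UMI counts of 32285 genes in 10474594 barcodes, with no cells called. Barcode and gene names were used as deposited. No column of per-sample values was left out. The barcode suffix only kept libraries apart.

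Cells were called per library by rank (10% of the 99th percentile of the top 3000 barcodes) and by a test against ambient droplets (ranks 45000 to 90000, at least 500 UMIs, 10000 simulations, adjusted p of at most 0.01), and 12674 called barcodes above 25% mitochondrial counts were left out. Of the kept barcode sequences, 355 were shared by libraries, and 0 pairs had identical counts. A class needed 3 or 4 detected markers. Cells passing gates of more than 1 lineage were left out, as were leukocytes, endothelial cells, stromal cells and podocytes with over 3% tubule marker UMIs, a limit that removed 1 cell. Proximal tubule cells themselves had a median of 1.49%. Summed proximal tubule markers were 7062 CPM in neutrophils, 6154 CPM in NK cells, 5828 CPM in B cells and 2627 CPM in macrophages, beside 14465 CPM in proximal tubule cells. Ratios under lower limits are given below, and the part of this tubule RNA in the levels of leukocyte classes was not tested further. Doublets were scored by Scrublet (scanpy 1.11.5, 0.8% per 1000 cells) and kept in the main values. Levels are CPM of summed counts with exact Poisson intervals, shares have Clopper-Pearson intervals, and ratios have exact conditional binomial intervals (scipy 1.17.1), all covering counting error only, since UMIs of 1 cell are not independent. A count of 0 was given the limit of 3 counts. Shares were repeated in cells thinned to 1000 UMIs, which left out 7793 cells. The calling and the ratio interval were tested on simulated data. Genes to name were the 7 members, the extremes of each list with Ifng, and the 5 genes most like each member, of which some are not reported here. Further genes were named after their values were seen. The members, lists and classes were chosen with earlier results of these data known.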

Additional observations from a re-analysis of the deposited data

Results flagged for a closer look

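The members were also counted in cells and barcodes that enter no comparison above. In the 4155 kept cells that passed no gate, the level was 96.9 CPM for Cxcl10, 105 CPM for Cxcl16, 3.63 CPM for Cxcl9, 1.15 CPM for Cxcl13, 3.63 CPM for Cxcr3, 4.2 CPM for Cxcr6 and 4.4 CPM for Cxcr5, above what a count of 0 would allow for each. In called barcodes above the mitochondrial limit, the level was 23.7 CPM for Cxcl10, 45.9 CPM for Cxcl16, 0.288 CPM for Cxcl9, 0.198 CPM for Cxcr3, 0.521 CPM for Cxcr6 and 0.162 CPM for Cxcr5.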

How the results depend on the processing

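None of the log2 ratios between a lineage and all other gated cells changed direction under the alternatives run. The Cxcl10 ratio, 1.47, was 1.11 with at most 10% mitochondrial counts, 1.61 and 1.72 with tubule limits of 1% and 0.5%, 1.57 with 1 more marker per gate and 2.04 as a mean over cells. Cxcl16, 2.20, was 2.11, 2.30, 2.42, 2.34 and 2.36 under the same 5, and 2.33 without Scrublet doublets. Cxcl9, 7.62, was 7.19 with at most 10% mitochondrial counts. Cxcr3, 8.21, was 7.45 there, 8.68 and 9.10 with the tubule limits and 8.83 without doublets, and Cxcr6, 10.82, was 11.66 without doublets. Cxcl13, 7.60, was 5.93 without the cell with the most UMIs. The 0.5% limit, the removal of that cell and the levels of further classes without each library were chosen after seeing the data. Leaving out each library in turn gave 0.94 to 1.997 for Cxcl10, 7.34 to 9.07 for Cxcl13 (without library 1 no value could be had), 1.99 to 2.80 for Cxcl16, 7.17 to 8.22 for Cxcl9, 8.003 to 8.49 for Cxcr3, 6.77 to 7.26 for Cxcr5 and 10.52 to 11.78 for Cxcr6, and the highest values of Cxcl9, Cxcl10, Cxcl13, Cxcl16 and Cxcr6 were those without library 3. Without thinning, the state genes at least 2-fold higher in Cxcr6+ cells went from 1 to 2, and the interferon-gamma and type I interferon genes in Cxcl9+ cells from 2 to 5 and from 2 to 6. The causes were not tested. No paired analysis was possible because each condition has 1 sample as deposited and the libraries carry no condition. Depth limits what the receptors show: T cells had a median of 1833 UMIs, and each carrying T cell had 1.31 Cxcr3 UMIs on average.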

Other observations

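Library 3 had the lowest macrophage level of Cxcl9, Cxcl10 and Cxcl16, the lowest pooled T cell level of Cxcr3 and Cxcr6, the lowest B cell level of Cxcr5 and the lowest Ifng in T and NK cells. It was also the library with the most kept cells (19132) and the highest ambient Cxcl16 (124 CPM), and with 2708 of the 3726 Havcr1+ epithelial cells. The pattern was not shared by the ligands in its proximal tubule cells, with 71.3 CPM of Cxcl10 and 90.0 CPM of Cxcl16, or by Cxcl10 in its 21 fibroblasts or pericytes, with 414 CPM against 132 CPM in library 2. Nor was it shared by Cxcr3 in CD4 T cells, with 108 CPM against 94.0 and 89.1 CPM in libraries 1 and 2, or in CD8 T cells, with 58.1 CPM against 48.7 CPM in library 2.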
